A study of Mus musculus with 6 samples.

Results

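The 9 genes described here encode proteins that muscle fibres make or move when the contractile lattice is loaded or damaged: Ankrd1, Ankrd2, Ankrd23, Csrp3, Xirp1, Xirp2, Flnc, Nrap and Mustn1. They were taken by symbol for this shared role, in a choice made with earlier results of these data known. Each symbol matched 1 of the 57010 genes in the expression table, and all 9 were among the 11375 genes that passed the filter on low expression. Expression was measured by RNA sequencing in gastrocnemius, a calf muscle of mostly fast fibres, from NSG mice. This strain (NOD/SCID/IL2Rγ-null) lacks mature lymphocytes and keeps myeloid cells. Every mouse carried a subcutaneous flank tumour grown from the human triple-negative breast cancer line MDA-MB-231 with a knockdown of the vesicle-secretion GTPase Rab27a. In the radiotherapy group (3 libraries) the tumour, at about 800 mm3, received a single local dose of 10 Gy of X-rays, and the gastrocnemius of the opposite leg was taken 3 days later. In the control group (3 libraries) the mice bore the same knockdown tumours without irradiation. Both groups share the strain, the tumour line and the knockdown, and tumours without the knockdown were not analysed here. The labels give neither age nor sex, and for the control group no tumour volume or time of harvest is listed. Whether each library is from its own mouse is not stated, and p-values then measure only the spread between these libraries, which may be technical.

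Striated muscle senses tension at fixed points of the sarcomere, among them the Z-disc, the elastic I-band segment of titin and the costameres and junctions that tie myofibrils to the membrane. Proteins docked at these points can leave them under load and enter the nucleus, or gather where the lattice has torn and bridge the gap while new sarcomeres are built. Ankrd1, Ankrd2 and Ankrd23 form the muscle ankyrin repeat family that binds titin, Csrp3 is the muscle LIM protein of the Z-disc, and Xirp1, Xirp2 and Flnc are actin-binding scaffolds found at damaged sarcomeres. Nrap takes part in the assembly of myofibrils and their anchoring at junctions, and Mustn1 is a small protein of developing and regenerating musculoskeletal tissue.

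Promoter windows are shown for the 3 ankyrin repeat genes, of which Ankrd23 alone had a lower mean in radiotherapy, though none passed the test given below. Windows of Csrp3 and Mustn1 are shown too, since both shared with Ankrd2 a low control library 2 and a high radiotherapy library 3. The sequences are RefSeq's, build GRCm38.p6, and run from 250 bases before to 50 bases after an annotated transcription start, 5′ to 3′ on the gene's strand. Capitals mark the MCAT element GGAATG, which reads CATTCC on the other strand and is the core bound by TEAD factors, and the E-box CANNTG, the core bound by myogenic bHLH factors. Where RefSeq gives 2 starts, the window of the upstream start is shown. The Ankrd1 window is at chr19:36119795-36120094 on the minus strand, the Ankrd2 window at chr19:42035777-42036076 on the plus strand, the Ankrd23 window at chr1:36536507-36536806 on the minus strand, the Csrp3 window at chr7:48848002-48848301 on the minus strand and the Mustn1 window at chr14:30879007-30879306 on the plus strand.
Ankrd1: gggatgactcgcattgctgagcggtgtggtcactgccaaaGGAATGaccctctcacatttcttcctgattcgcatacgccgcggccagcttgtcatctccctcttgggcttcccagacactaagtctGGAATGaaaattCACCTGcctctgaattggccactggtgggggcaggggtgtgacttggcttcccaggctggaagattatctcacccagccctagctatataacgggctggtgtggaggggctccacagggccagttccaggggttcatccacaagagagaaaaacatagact
Ankrd2: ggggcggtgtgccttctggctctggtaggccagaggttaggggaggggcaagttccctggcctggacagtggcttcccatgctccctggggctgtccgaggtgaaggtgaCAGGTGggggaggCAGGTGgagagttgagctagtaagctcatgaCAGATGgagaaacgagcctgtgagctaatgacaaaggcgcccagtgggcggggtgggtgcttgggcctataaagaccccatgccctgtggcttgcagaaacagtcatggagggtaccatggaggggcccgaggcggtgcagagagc
Ankrd23: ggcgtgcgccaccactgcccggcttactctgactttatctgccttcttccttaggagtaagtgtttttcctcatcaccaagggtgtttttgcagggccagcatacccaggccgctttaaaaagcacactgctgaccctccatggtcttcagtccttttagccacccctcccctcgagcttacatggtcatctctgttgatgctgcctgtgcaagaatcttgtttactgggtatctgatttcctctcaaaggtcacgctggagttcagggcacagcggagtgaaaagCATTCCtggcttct
Csrp3: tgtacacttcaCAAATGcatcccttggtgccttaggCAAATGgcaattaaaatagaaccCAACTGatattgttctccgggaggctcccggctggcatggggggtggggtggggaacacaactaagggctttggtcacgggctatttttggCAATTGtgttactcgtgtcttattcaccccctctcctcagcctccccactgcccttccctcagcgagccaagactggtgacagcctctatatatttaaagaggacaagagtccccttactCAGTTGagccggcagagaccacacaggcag
Mustn1: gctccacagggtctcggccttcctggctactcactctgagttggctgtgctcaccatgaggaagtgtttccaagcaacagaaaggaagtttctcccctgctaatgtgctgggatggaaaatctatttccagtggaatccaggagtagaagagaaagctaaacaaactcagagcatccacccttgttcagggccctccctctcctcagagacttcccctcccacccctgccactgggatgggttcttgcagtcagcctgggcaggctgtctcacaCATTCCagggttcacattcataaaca
The Ankrd1 window held 2 MCAT elements, from −210 to −205 and from −123 to −118 relative to the start, which is counted as 0. The Ankrd2 window held no MCAT element, 3 E-boxes and a TATAAA from −29 to −24. The Ankrd23 window shown held 1 MCAT element from 36 to 41 and no E-box. Its other window, of the downstream start, held 1 MCAT element from −120 to −115 and 2 E-boxes. The Csrp3 window held 5 E-boxes and no MCAT element, and the Mustn1 window 1 MCAT element from 24 to 29 and no E-box. RefSeq windows were found for 8 of the 9 genes, 11 windows in all. MCAT was in 6 of these 11 windows, which belong to 4 genes (Ankrd1, Ankrd23, Flnc and Mustn1), against 14.7% of all 32851 mouse promoter windows of this length. The 2 Flnc windows overlap and hold the same MCAT element. The E-box was in 7 of the 11 windows, against 72.3% of all windows, TATAAA was in 13.6% of all windows, and the CArG box of serum response factor was in none of the 11, against 1.63% of all windows. All motifs were searched on both strands, MCAT and E-box matches did not overlap in the windows shown, and a match is a run of letters, not evidence of binding.

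The labelled tissue was clear from its markers: 8 skeletal muscle genes summed to 56089 to 99551 TPM in radiotherapy and 118338 to 126826 TPM in control libraries, where TPM is a transcript's length-corrected share of the library, scaled to 1000000. These sums did not overlap between the groups. In the test given below, 6 of the 8 genes had an unadjusted limma p under 0.05, and none passed after adjustment. Of 7 heart markers, 6 stayed below 1 TPM and Myh6 reached 8.51 TPM. Sequencing depth was unknown, since TPM columns all have 1 common total. Radiotherapy library 2 and control library 3 lay farthest apart on the first principal component over all genes tested (53.6 and −34.7, 30.6% of the variance). The 8 leukocyte markers summed to 156 to 748 TPM in radiotherapy libraries, and to 1759 TPM in control library 1 and 279 to 289 TPM in the other controls. The 6 Schwann cell markers summed to 606 TPM in radiotherapy library 3, against 33.3 to 188 TPM in the other 5 libraries. The 5 red blood cell markers summed to 930 to 1618 TPM in radiotherapy and 3352 to 7203 TPM in control libraries, and the 9 tendon markers to 12.4 to 17.7 TPM in radiotherapy and 20.5 to 43.4 TPM in control libraries, both without overlap. Mitochondrially encoded genes took 15.1% to 22.5% of TPM in radiotherapy and 8.93% to 13.7% in control libraries. The part of these differences in the members' values was not tested. In whole muscle, fewer cells of a type and less RNA per cell cannot be told apart.

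Csrp3, Ankrd2 and Mustn1 had means about 2 times as high in radiotherapy as in control muscle, with ratios of 1.96, 2.10 and 1.93, and Ankrd1 had a ratio of 1.53. Ankrd23 had the opposite sign, with a ratio of 0.589. Xirp1, Xirp2, Flnc and Nrap had ratios between 0.989 and 1.22. None of the 9 genes passed the test (limma, Benjamini-Hochberg adjusted p from 0.977 to 0.999). No gene of the table passed either (0 of 11375, 0% called), and 435 genes, 3.82%, had an unadjusted limma p under 0.05. One of those 435 was a member, Ankrd2. Log2 fold changes, computed on log2(TPM + 1) as radiotherapy minus control, were positive for 7 of the 9 genes, against 32.1% of all genes tested. Of these 7, Xirp1 was at only 0.01 and Xirp2 at 0.02. The count was 5 without radiotherapy library 3 and 8 without radiotherapy library 2, so it does not show a common direction. The median of the 9 genes was 0.14, against −0.11 for all genes. Leaving out 1 library moved the member median between 0.05, without radiotherapy library 3, and 0.46, without radiotherapy library 2, where the median of all genes was −0.25 and −0.01. In no member did the 3 radiotherapy values lie wholly on one side of the 3 control values, against 9.24% of all genes tested. Because TPM is relative, the signs were also computed after median-of-ratios scaling, quantile normalization and removal of the most abundant genes. Ankrd1, Ankrd2, Csrp3 and Mustn1 stayed positive and Ankrd23 negative under all 3, and Nrap, at −0.01 as deposited, became positive.

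**Figure D1:**
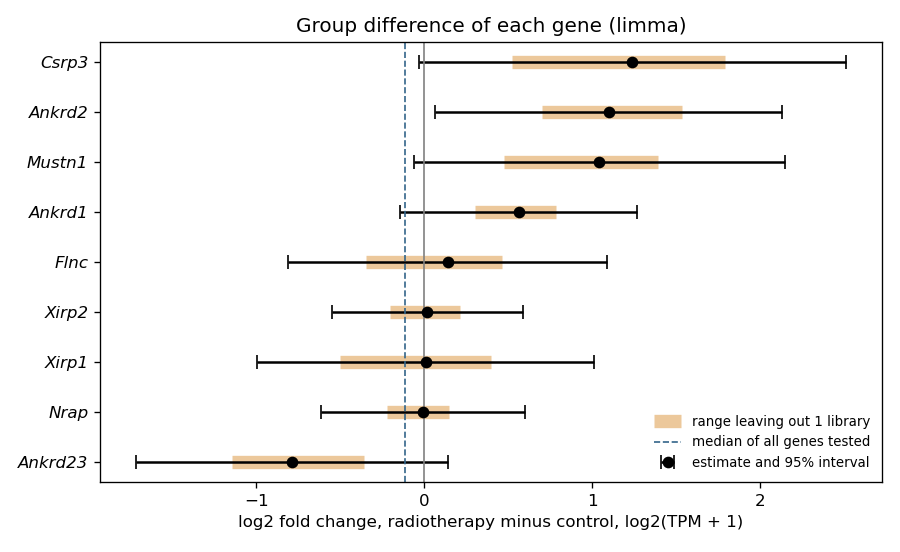
Log2 fold change of each gene, radiotherapy minus control, on log2(TPM + 1). Points and lines are limma estimates with 95% intervals, shaded bars span the estimates when 1 library is left out, and the dashed line marks the median of all genes tested at −0.11. The interval of Ankrd2 alone does not cross 0 before adjustment, and the shaded bars of Flnc, Xirp1, Xirp2 and Nrap lie on both sides of 0.

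Of the muscle ankyrin repeat genes, Ankrd23 differed from Ankrd1 and Ankrd2 in the sign of its group difference, and none of the 3 passed the test. Ankrd1, also known as CARP, is a co-regulator of transcription that is low in resting limb muscle and induced by stretch and injury. It was the least abundant of the 9 genes, at 30.1, 17.0 and 17.2 TPM in radiotherapy libraries 1, 2 and 3 and at 12.1, 11.1 and 18.9 TPM in control libraries 1, 2 and 3. Radiotherapy library 1 was the highest of the 6, and control library 3 lay above the other radiotherapy libraries, so the groups overlapped. The means were 21.4 ± 7.53 TPM in radiotherapy and 14.05 ± 4.27 TPM in control muscle (SD, n = 3 each), a log2 fold change of 0.56 (SE 0.31, 95% interval −0.14 to 1.27; limma adjusted p = 0.977). Without radiotherapy library 1 the log2 fold change was 0.30, and without control library 3 it was 0.78.

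Ankrd2, also called ARPP, is enriched in slow fibres and rises in stretched muscle. Its values were 200, 249.5 and 512 TPM in radiotherapy libraries 1, 2 and 3 and 251, 80.5 and 127 TPM in control libraries 1, 2 and 3. Radiotherapy library 3 stood above all others, and control library 1 was slightly above radiotherapy libraries 1 and 2. The group means were 321 ± 167 TPM in radiotherapy and 153 ± 88.3 TPM in control muscle (SD, n = 3 each). The log2 fold change of 1.10 (SE 0.46, 95% interval 0.07 to 2.13) had an unadjusted p of 0.0396 and an adjusted p of 0.977 (limma). It was 0.70 without radiotherapy library 3 and 1.53 without control library 1. The 10 slow fibre markers, among which Ankrd2 is not counted, summed to 2438, 2199.7 and 1958 TPM in radiotherapy libraries 1, 2 and 3 and to 2837, 1662 and 1053 TPM in control libraries 1, 2 and 3. The groups overlapped, with control library 1 the highest of the 6. No slow marker was at 0 in all libraries. A positive log2 fold change was found for 9 of the 10, against 32.1% of all genes tested, and none had an unadjusted limma p under 0.05. The part of fibre type in the Ankrd2 and Csrp3 values was not tested.

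Ankrd23, or DARP, a titin-binding relative linked to energy metabolism, was the most abundant of the 9 genes, and its mean level exceeded those of 99.4% of all genes tested. It was at 1369, 589 and 1512 TPM in radiotherapy libraries 1, 2 and 3 and at 2057, 2708 and 1129 TPM in control libraries 1, 2 and 3. Control libraries 1 and 2 lay above every radiotherapy library, and control library 3 lay below radiotherapy libraries 1 and 3. The means were 1157 ± 497 TPM in radiotherapy and 1965 ± 794 TPM in control muscle (SD, n = 3 each), with a log2 fold change of −0.79 (SE 0.41, 95% interval −1.72 to 0.14; limma adjusted p = 0.977). Without radiotherapy library 2 it was −0.36, and without control library 3 it was −1.14. The skeletal muscle marker sum was lower in every radiotherapy library than in every control library. It was also lowest in radiotherapy library 2, at 56089 TPM, and the part of these markers in the Ankrd23 value was not tested. Ankrd23 shares its locus with the predicted gene Gm42417 on the same strand, listed at 1.68 to 13.3 TPM. Reads from the shared stretch may not be assigned with certainty, and how many there are was not examined.

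Ankrd2 and Ankrd23 differed in sign, and their ratio was computed within each library. Such a ratio of 2 genes does not depend on how the library was scaled. Ankrd2 stood at 0.146, 0.423 and 0.339 of the Ankrd23 level in radiotherapy libraries 1, 2 and 3 and at 0.122, 0.0297 and 0.112 of it in control libraries 1, 2 and 3. All 3 radiotherapy ratios were above all 3 control ratios. Of 7 ratios between members that were computed, it was the only such one, and in the other 6 at most 1 radiotherapy library lay above all controls. This ratio was chosen after the values had been seen, between genes of opposite sign, and was not tested. How often other gene pairs separate in this way was not computed, and the ratio does not show whether either gene differed, or which.

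Csrp3, the muscle LIM protein, is a Z-disc adaptor and myogenic cofactor that is more abundant in slow than in fast fibres. It was the most variable member, with a 9.52-fold span between its extreme libraries. Its levels were 363, 388 and 672 TPM in radiotherapy libraries 1, 2 and 3, against 414, 70.6 and 242 TPM in control libraries 1, 2 and 3. Control library 2 was far below the rest, and control library 1 lay between radiotherapy libraries 2 and 3. The means were 474 ± 172 TPM in radiotherapy and 242 ± 172 TPM in control muscle (SD, n = 3 each). The log2 fold change of 1.24 (SE 0.56, 95% interval −0.03 to 2.52; limma adjusted p = 0.977) was 0.52 without control library 2 and 1.79 without control library 1.

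Mustn1, a small nuclear protein of muscle and skeletal growth and repair, was at 225, 328 and 543 TPM in radiotherapy libraries 1, 2 and 3 and at 223, 75.0 and 269.7 TPM in control libraries 1, 2 and 3. Radiotherapy libraries 2 and 3 lay above every control, while radiotherapy library 1 lay between control libraries 1 and 3. Means of 365 ± 162 TPM in radiotherapy and 189 ± 102 TPM in control muscle (SD, n = 3 each) gave a log2 fold change of 1.04 (SE 0.49, 95% interval −0.06 to 2.15; limma adjusted p = 0.977). As for Csrp3, control library 2 was the lowest, and without it the log2 fold change of Mustn1 was 0.48. Mustn1 is known from smooth muscle as well; the 8 smooth muscle and pericyte markers summed to 144 to 180 TPM in radiotherapy and 97.2 to 165 TPM in control libraries, and their part in the Mustn1 value was not tested.

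**Figure D2:**
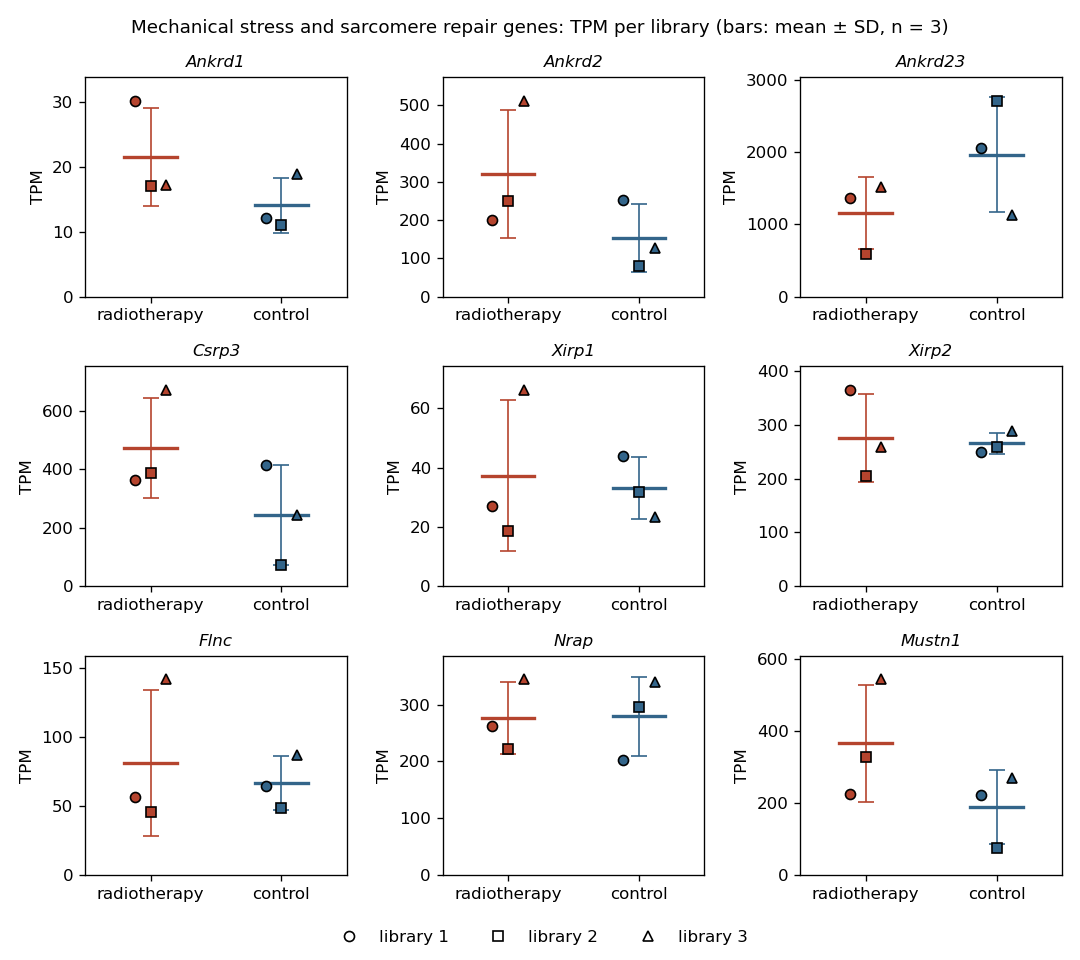
TPM of each of the 9 genes in every library, radiotherapy on the left and control on the right, with 1 symbol per library number and bars for the mean ± SD (n = 3 each). Control library 2 is lowest for Csrp3, Mustn1, Ankrd2 and Ankrd1 and highest for Ankrd23, and radiotherapy library 3 is highest for 6 of the 9 genes.

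Xirp1, Flnc and Xirp2, the actin scaffolds of sarcomere repair, had similar means in both groups. Each spread more among the 3 radiotherapy than among the 3 control libraries, a difference that was not tested. Xirp1, or Xin, binds filamin C and marks fresh damage along the myofibril. It was at 27.1, 18.4 and 66.3 TPM in radiotherapy libraries 1, 2 and 3 and at 44.0, 31.9 and 23.3 TPM in control libraries 1, 2 and 3. The highest and the lowest of the 6 values were both radiotherapy libraries, and the log2 fold change was 0.01 (SE 0.44, 95% interval −0.995 to 1.01; limma adjusted p = 0.999).

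Flnc encodes filamin C, the striated muscle filamin, which crosslinks actin at the Z-disc and membrane and is bound by Xin. It had the same extremes as Xirp1, at 56.5, 45.4 and 141.8 TPM in radiotherapy libraries 1, 2 and 3, against 64.7, 48.2 and 87.0 TPM in control libraries 1, 2 and 3. Radiotherapy library 1 was thus within the control range, library 2 below it and library 3 above it. Flnc had a log2 fold change of 0.14 (SE 0.42, 95% interval −0.81 to 1.09; limma adjusted p = 0.990). Without radiotherapy library 3 the log2 fold changes were −0.50 for Xirp1 and −0.35 for Flnc. Without control library 3 Xirp1 was at −0.21, and without control library 2 Flnc was at −0.07. The coefficient of variation among radiotherapy libraries was 68.5% for Xirp1 and 65.0% for Flnc, against 31.4% and 29.2% among controls.

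Xirp2, or myomaxin, encodes the larger Xin protein, and its RNA was the more abundant in this muscle, with 271 TPM over all libraries against 35.1 TPM for Xirp1. It was at 365, 204 and 259 TPM in radiotherapy libraries 1, 2 and 3 and at 249, 258 and 288 TPM in control libraries 1, 2 and 3. The 3 controls lay close together and inside the radiotherapy range. Its log2 fold change was 0.02 (SE 0.25, 95% interval −0.55 to 0.59; limma adjusted p = 0.996), and the coefficient of variation was 29.6% among radiotherapy and 7.71% among control libraries.

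Nrap, a nebulin-related protein that anchors actin filaments at the ends of myofibrils, was the least variable member by the ratio of its extreme libraries, which was 1.70. Its values were 263, 222 and 345 TPM in radiotherapy libraries 1, 2 and 3 and 203, 295 and 340.1 TPM in control libraries 1, 2 and 3. The groups covered almost the same range, with means of 277 ± 62.6 TPM in radiotherapy and 279.6 ± 69.6 TPM in control muscle (SD, n = 3 each; log2 fold change −0.01, SE 0.27, 95% interval −0.61 to 0.60, limma adjusted p = 0.999). Of the genes that overlap a member in the GENCODE M21 annotation, those of Xirp1, Xirp2 and Nrap were listed at no more than 3.49 TPM in any library.

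In order of mean TPM, the 9 genes ran Ankrd23, Csrp3, Mustn1, Ankrd2, Nrap, Xirp2, Flnc, Xirp1 and Ankrd1 in radiotherapy muscle and Ankrd23, Nrap, Xirp2, Csrp3, Mustn1, Ankrd2, Flnc, Xirp1 and Ankrd1 in control muscle. The 5 genes from Csrp3 to Xirp2 in the first of these orders lay within the spread of their neighbours in both groups. Together the 9 genes took 0.290%, 0.206% and 0.407% of all TPM in radiotherapy libraries 1, 2 and 3 and 0.352%, 0.358% and 0.253% in control libraries 1, 2 and 3. Most of that share was Ankrd23 in every control library except library 3, and the groups overlapped.

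Across the libraries, Ankrd2 and Mustn1 had the profiles closest to that of Csrp3 among the members. Centred on each gene's mean, the profile of Csrp3 over 6 libraries differed from that of Ankrd2 by a root-mean-square of 0.37 and from that of Mustn1 by 0.38 on the log2 scale. For the other members this difference was between 0.86, for Flnc, and 1.47, for Ankrd23. Among 6708 other genes with a mean of at least 5 TPM, the closest to Csrp3 were Gm3219 at 0.46, Rpl35a-ps3 at 0.49 and Gm13889 at 0.52, and the median gene was at 1.06. A gene that did not vary would be at 1.01, so values near it do not tell a different pattern from a small variation. All of these profiles come from the same 6 libraries, and radiotherapy library 3 and control library 2 carry most of the Csrp3 pattern. The closest genes to the mean profile of the 9 members were Akip1 at 0.10, Retsat at 0.11 and P2rx5 at 0.11, with the median gene at 0.42. The members themselves lay between 0.31, for Flnc, and 0.81, for Ankrd23, and a gene that did not vary would be at 0.38. The mean profile is thus not a pattern that each member shared. Radiotherapy library 3, the highest for 6 members, also had the highest Schwann cell marker sum, whose part in these values was not tested.

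**Figure D3:**
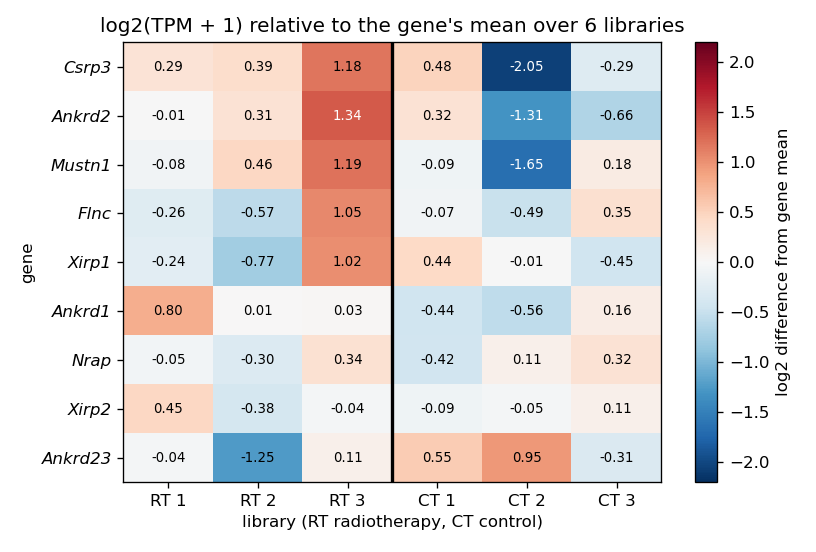
Log2(TPM + 1) of each gene minus its own mean over the 6 libraries, radiotherapy libraries left of the line and control libraries right of it. Red is above and blue below the gene's mean. Csrp3, Ankrd2 and Mustn1 share a low control library 2 (−2.05, −1.31 and −1.65) and a high radiotherapy library 3 (1.18, 1.34 and 1.19), while Ankrd23 is high in control library 2 (0.95).

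The 6 lists of genes that work beside these proteins were examined in the same fit, and no gene in them passed the test (limma adjusted p of 0.977 or more). Of 22 tested partners at titin and the Z-disc, 17 had negative log2 fold changes (median −0.32, against −0.11 for all genes), and 4 had an unadjusted limma p under 0.05. Over all genes tested, 67.9% were negative and 3.82% had such a p. The 4 were Tcap (−0.66), the telethonin that caps titin in the Z-disc and binds Csrp3, the fast-fibre α-actinin Actn3 (−0.50), and the calsarcins Myoz1 (−0.61) and Myoz3 (−0.86). Actn3 is also counted among the 8 skeletal muscle markers. Of those 8, only 1 had a positive log2 fold change and 6 had an unadjusted limma p under 0.05, with a median of −0.57. Lower values were thus not particular to the partners, and the part of the general muscle genes in them was not tested. Tcap was at 3289, 2938 and 3068 TPM in radiotherapy libraries 1, 2 and 3 and at 3761, 4886 and 6319 TPM in control libraries 1, 2 and 3, without overlap of the groups (limma adjusted p = 0.977).

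The 12 tested genes of filamin C quality control and the small chaperones were split evenly, with 6 positive and 6 negative and a median of −0.0020. The 2 most abundant were desmin, Des, the intermediate filament of the Z-disc, at −0.28 (SE 0.26), and Cryab, the small chaperone that protects it, at 0.62 (SE 0.45). Cryab was at 1274, 1535 and 2293 TPM in radiotherapy libraries 1, 2 and 3 and at 2365, 649 and 797 TPM in control libraries 1, 2 and 3, high in control library 1 and low in control library 2, as Ankrd2 was. Among 15 tested costamere and integrin genes 12 were negative (median −0.22), with 0.23 (SE 0.41) for nexilin, Nexn, and −0.31 (SE 0.29) for melusin, Itgb1bp2.

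Of 20 tested load-responsive genes and their SRF and YAP regulators, 14 were negative (median −0.18), close to the 67.9% of all genes. An unadjusted limma p under 0.05 was found for 3 of the 20, against 3.82% of all genes tested. These were Srf (−0.95), the serum response factor, Acta1 (−0.91), the skeletal actin gene it regulates, and Ccn1 (−0.78), a matrix signal induced by YAP. Acta1 is also counted among the skeletal muscle markers. In this list 1 gene lay wholly higher in radiotherapy and 4 wholly lower, where 9.24% of all genes tested had no overlap. Its log2 fold changes ran from −1.70 to 1.17. Srf was at 11.1, 6.53 and 18.2 TPM in radiotherapy libraries 1, 2 and 3, below the 25.7, 18.9 and 22.8 TPM of control libraries 1, 2 and 3 (limma adjusted p = 0.977). Ankrd1, known as a YAP-induced gene too, thus had the opposite sign to Ccn1. Of 13 genes listed for regenerating fibres only 6 passed the filter, 4 of them with positive values (median 0.20), among them Myf6 at 0.41 (SE 0.33), with Myog at −0.16 (SE 0.51). Myf6 was at 136 to 280 TPM in radiotherapy and at 122 to 192 TPM in control libraries, so its presence does not mark regeneration here. Denervation-induced genes had a median of −0.12 over 4 tested genes, with −0.09 (SE 0.54) for Gadd45a.

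**Figure D4:**
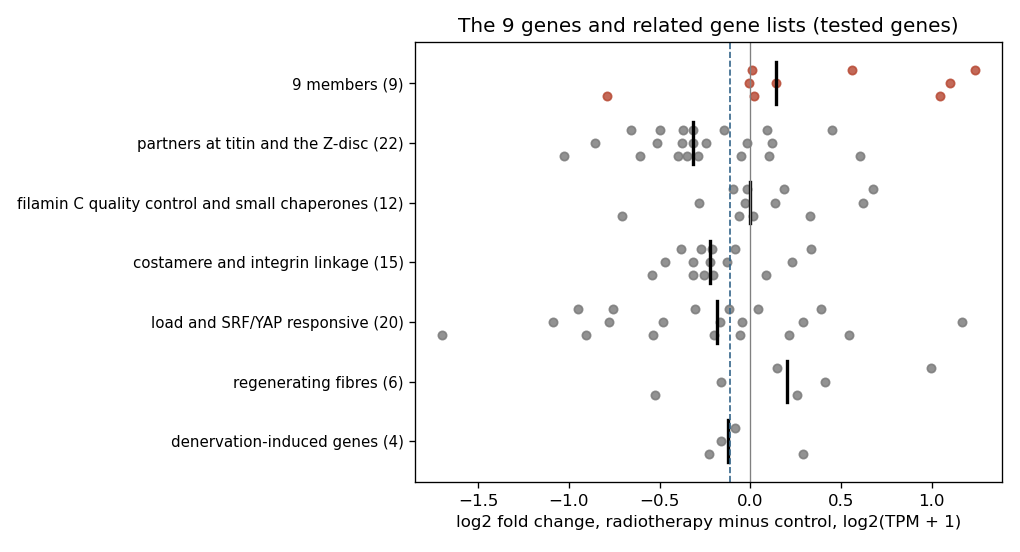
Log2 fold changes, radiotherapy minus control, of the 9 members (red) and of the tested genes in 6 related lists (grey), with the number tested in parentheses. Each point is 1 gene, black bars are list medians and the dashed line is the median of all genes tested. The member median is 0.14 and the median of the partners at titin and the Z-disc is −0.32.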

How the data were processed

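The authors deposited 1 table of TPM values per gene and library, per the file headers; each column summed to 1000000 within 1. HISAT2, StringTie, RSEM and build mm9 are named in the submitters' processing notes, with versions, annotation and strandedness not given in the sources used here. Libraries were made with a TruSeq RNA kit from total RNA, per the labels' protocols. Values were transformed to log2(TPM + 1), which understates fold changes of low genes. Genes reaching 1 TPM in 3 or more of the 6 libraries were tested with limma 3.58.1 in R 4.3.3 (lmFit, eBayes with trend, two-sided, group as the only term), adjusted by Benjamini-Hochberg over all 11375 genes at 0.05, and the script was checked on simulated data. No test was run over the members as a set.

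The members and lists were chosen with earlier results of these data known. All 9 members are named; from each related list, the genes with an unadjusted p under 0.05 are named or, with none, the 2 most abundant. Alternatives were 15 planned settings and 1 added after the data were seen. No 2 libraries shared more than 0.571% of tested values. Promoters were matched by symbol; the sequences' build differs from that of the table, so no coordinate was carried over. Figures were drawn with matplotlib 3.10.9.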

Additional observations from a re-analysis of the deposited data

How the results depend on the processing

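None of the 9 genes passed the adjusted limma test in any of the 16 alternatives, where the lowest adjusted p was 0.486. The sign of Ankrd1, Ankrd2, Csrp3, Mustn1 and Ankrd23 held in all 16. Nrap became positive with median-of-ratios scaling (0.090), with quantile normalization (0.11) and when mitochondrial and the 50 most abundant genes were left out (0.10). Leaving out 1 library at a time gave log2 fold changes from −0.22 to 0.15 for Nrap, −0.50 to 0.40 for Xirp1, −0.20 to 0.21 for Xirp2 and −0.35 to 0.46 for Flnc. It gave 0 to 3 members without overlap of the groups, where 12.3% to 33.6% of all genes tested had none, and 0 to 6 genes called over the whole table, the 6 without control library 1. Quantile normalization and removal of abundant genes each left 2 members without overlap, Csrp3 and Mustn1, against 10.4% and 7.9% of all genes tested. Leaving out control library 1 and radiotherapy library 2 together, a choice made after the data were seen, also left 2, Ankrd2 and Csrp3, against 27.1% of all genes tested. The median log2 fold change of all genes was −0.11 as deposited and −0.01 after quantile normalization. Replicate numbers are shared between the groups, but deviations of same-numbered libraries did not correlate (r from −0.11 to 0.02 across genes), and with the replicate block 0 genes and 0 members were called. Depth is unknown, so counting error could not be given; with 3 libraries a group, the 95% interval of Csrp3 spans −0.03 to 2.52.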

Other observations

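Relatives of the members that are made in many cell types were examined after the member values had been seen. Flna, the filamin of non-muscle cells, was at 20.6, 23.0 and 42.4 TPM in radiotherapy libraries 1, 2 and 3 and at 38.0, 42.0 and 16.0 TPM in control libraries 1, 2 and 3, with a log2 fold change of −0.11 (SE 0.41). Csrp1, a LIM protein related to Csrp3 and abundant in smooth muscle, gave 0.01 (SE 0.32), and Csrp2, its close relative, 0.47 (SE 0.29). Lasp1, an actin-binding relative of Nrap, gave −0.03 (SE 0.31). None of these 4 genes passed limma (adjusted p from 0.977 to 0.999). Control library 3 was the lowest of the 6 for Flna, Csrp1 and Csrp2 and shared the lowest value for Lasp1 with radiotherapy library 2, whereas none of the 9 members was lowest there.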
